A study of Mus musculus and Homo sapiens with 12 samples.

Results

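Regions of chromatin-associated RNA (caRNA) that were called as 5-methylcytosine (m5C) peaks in all 3 replicates of mouse embryonic stem cells (mESCs) and that lie mainly in repeats numbered 1315, of 35162 merged peak regions in all. Peaks of the 3 m5C-IP replicates were merged per chromosome and recorded strand wherever they overlapped by at least 1 bp, a region was called shared if it held a peak of each replicate, and it was called repeat-masked if at least 50% of its bases are in lower case in the soft-masked mouse genome (mm10). Of the 1710 shared regions with sequence used here, 1315 (76.9%) were repeat-masked and 395 were not. The samples were wild-type mESCs, cultured with LIF, CHIR99021 and PD0325901 and passaged on gelatin to clear feeder cells. From their caRNA, 3 Input libraries and 3 libraries of RNA fragments bound by an anti-m5C antibody (m5C-IP) were sequenced. The study calls its replicates biological, and the labels do not say whether they came from separate cultures. Groups follow the samples' titles, while the antibody field of the labels reads none for these IP samples too, a conflict that was not resolved here. No Input peak list was used, and a peak is a call of the authors' peak caller.

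Repeats make up a large part of mammalian genomes and much of the RNA that stays bound to chromatin. The LINE-1 (L1) element copies itself through an RNA intermediate, and in the mouse its promoter is an array of GC-rich units, called monomers, that stand in tandem at the 5′ end and differ between the A, Tf and Gf subfamilies. Intracisternal A particles (IAPs) are endogenous retroviruses of the ERVK family, SINEs such as B1 and B2 are short elements without proteins of their own, and the major (gamma) satellite is an AT-rich tandem repeat of mouse centromeres with a unit of 234 bp. In RNA, m5C is written by NSUN family enzymes, among which NSUN2 is known to act at cytosines ahead of a G-rich stretch and NSUN6 at a CTCCA motif.

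The regions fell into groups of similar sequence, and the 5 largest groups held 889 of the 1315 (67.6%). A group joins regions that align to each other over at least 80% of the shorter one at 80% identity. One region of each of the 5 groups is shown, as the sequence most of the results below turn on, on its recorded strand, with every match to CNGGG in capitals. The sequences were read from mm10, and each is its region's first 300 bases or, if shorter, the whole region.
Group 1 (chr13:61422085-61422384, plus strand): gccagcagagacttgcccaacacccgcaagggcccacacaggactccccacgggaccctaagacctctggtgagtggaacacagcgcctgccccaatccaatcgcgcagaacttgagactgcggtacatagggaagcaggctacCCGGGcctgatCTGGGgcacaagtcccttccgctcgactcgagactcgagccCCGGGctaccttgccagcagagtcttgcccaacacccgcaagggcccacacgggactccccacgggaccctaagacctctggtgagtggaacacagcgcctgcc
Group 2 (chrUn_JH584304:90617-90916, minus strand): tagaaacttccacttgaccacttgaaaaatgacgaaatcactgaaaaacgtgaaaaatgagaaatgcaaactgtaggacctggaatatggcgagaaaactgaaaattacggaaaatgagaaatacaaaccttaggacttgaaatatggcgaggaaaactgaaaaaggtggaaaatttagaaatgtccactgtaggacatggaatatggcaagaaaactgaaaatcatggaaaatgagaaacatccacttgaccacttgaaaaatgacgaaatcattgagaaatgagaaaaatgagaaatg
Group 3 (chr14:106457284-106457519, plus strand): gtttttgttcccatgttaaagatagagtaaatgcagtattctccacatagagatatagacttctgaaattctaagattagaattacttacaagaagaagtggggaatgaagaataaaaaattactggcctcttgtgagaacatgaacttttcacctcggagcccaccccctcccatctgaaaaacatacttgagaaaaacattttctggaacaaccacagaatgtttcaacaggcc
Group 4 (chr7:5860435-5860607, plus strand): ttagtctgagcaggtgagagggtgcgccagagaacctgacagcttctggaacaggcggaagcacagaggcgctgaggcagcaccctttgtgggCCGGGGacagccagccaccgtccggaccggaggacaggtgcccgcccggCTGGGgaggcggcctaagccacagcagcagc
Group 5 (chr1:79277427-79277580, minus strand): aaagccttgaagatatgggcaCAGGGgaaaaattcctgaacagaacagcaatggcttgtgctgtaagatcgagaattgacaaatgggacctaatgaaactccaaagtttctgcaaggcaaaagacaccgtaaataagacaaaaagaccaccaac
The sequences of groups 1 and 4 hold 16 and 10 CpG dinucleotides and 3 CNGGG matches each, of which a pair overlap by 4 bases in group 4. The 300 bases of group 2 have 34.7% GC and no CNGGG, and their region repeats itself with a period of 234 bp. The region of group 3 lies in an intron of 1700128A07Rik, on the other strand from the gene, and the other 4 lie outside annotated genes.

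The more replicates called a region, the more often it was repeat-masked. Among regions of exactly 2 replicates, 1837 of 3093 (59.4%, 95% Wilson interval 57.7 to 61.1%) were repeat-masked, and among those of 1 replicate 13314 of 30338 (43.9%, 43.3 to 44.4%). Lower-case bases make up 36.4% of the genome, which is a share of bases and not of regions that pass the 50% rule. The intervals cover counting error over regions only, and regions are not independent. The rule's threshold touched few regions, since 1038 of the 1315 (78.9%) were masked over their whole length. The 5 shared regions nearest below the threshold were masked over 49.1 to 49.9%: on chromosome 15 in an intron of Pla2g6, on chromosomes 1 and 6, and at 2 places on the Y chromosome. The 5 nearest above were masked over 50.7 to 51.1%: 3 regions on chromosome 12 with the same share of 50.7% and the same GC content of 46.7%, and 1 each in introns of Prkch and Slc4a7.

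**Figure D1:**
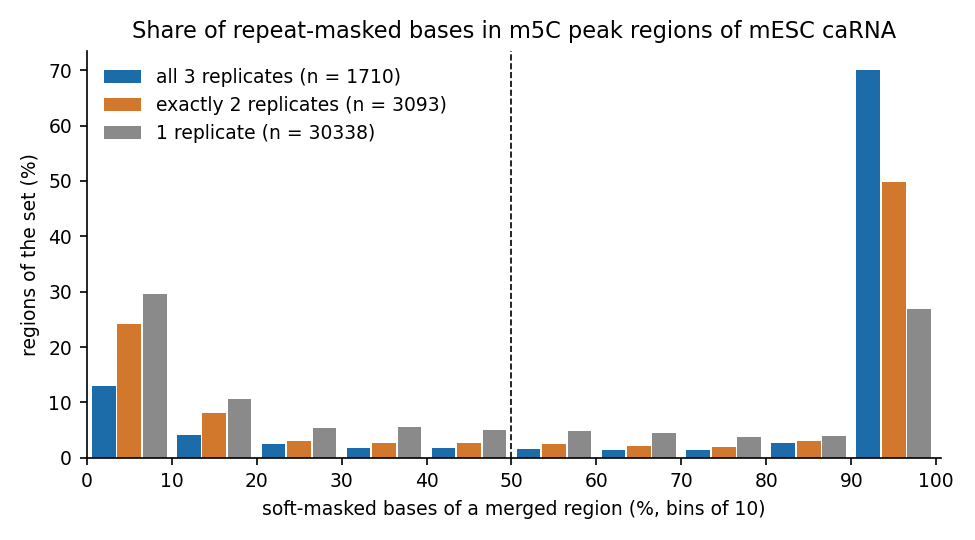
Share of soft-masked bases of each merged region (x axis, %, bins of 10) against the percent of regions in that bin (y axis), for regions called in all 3, in exactly 2 and in 1 replicate; the dashed line is the 50% threshold. The 90 to 100% bin held 1197 of the 1710 shared regions, 49.8% of those of 2 replicates and 26.9% of those of 1, and the 0 to 10% bin held 13.0%, 24.1% and 29.5%.

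Since the rule joins overlapping peaks of all 3 replicates, the values below do not measure how well replicates agree and only describe the regions. Replicates 1, 2 and 3 had 1470, 1490 and 1492 peaks in them, which is 13.2%, 9.67% and 9.44% of their lists, and 1138 of the 1315 regions (86.5%) held exactly 1 peak of each. Peaks of all 3 covered a median of 81.5% of a region, with quartiles of 50.6 and 97.4%, and only 19 regions had no base where all 3 met. The regions had a median width of 205 bp, against 198 bp for the shared regions outside repeats, and ranged from 150 bp, the fragment extension used in peak calling, to 4612 bp. Together they covered 396.5 kb.

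The strand of a region is the one recorded in the peak lists, and it did not follow that of annotated genes. Of the 39 regions on exons, 21 touched exons of the recorded strand alone, 16 exons of the other strand alone, and 2 both. Of 4777 regions of 1 replicate on exons, 1702 and 2909 touched exons of the recorded and of the other strand alone. Which strand of the RNA was pulled down is therefore not read from the recorded strand, and sequences and motifs are given on it as recorded. On the plus strand lay 731 regions and on the minus strand 584, and 129 of the 731 overlapped one on the minus strand.

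Most regions were sequences of which the genome holds many copies. The median 31-base word of a region occurred at a median of 1114 places (quartiles 44.2 and 2348), against 3 places for shared regions outside repeats. At least 1000 copies of the median word were found for 678 regions (51.6%), and only in 47 (3.57%) did the median word have 1 copy. A read made only of such words cannot be assigned to 1 copy, so a region may stand for a sequence rather than for 1 transcribed place. How many reads were of this kind was not tested. The share of regions whose median word had 1 copy was 36.5% outside repeats and 62.1% among regions of 1 replicate.

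Median base composition was close to that of the other shared regions, over a wider range. The median GC content of all 1315 was 54.3% (quartiles 42.2 and 62.9%), and of the shared regions outside repeats 55.6% (51.0 and 61.9%), both above the genome (41.7%). Median cytosine content was 25.7% and 26.0%, with lower quartiles of 19.7% and 22.3%. CpG dinucleotides stood at a median of 3.92 per 100 bp, against 3.40 outside repeats, 2.92 in regions of 2 replicates and 2.0 in regions of 1. CNGGG, the kind of sequence NSUN2 is known for, was found on the recorded strand in the central 150 bp of 64.8% of the regions, 57.7% of shared regions outside repeats and 51.0% of all merged regions. CTCCA, the NSUN6 motif, was found in 13.2%, 22.8% and 19.2%, respectively. Among the 5 largest groups the share with CNGGG was 95.4%, 96.8% and 95.6% in groups 1, 4 and 5, of 476, 93 and 91 regions. In groups 2 and 3 it was 4.27% and 42.9%. The share over all regions thus rests largely on copies of the sequences of groups 1, 4 and 5, and is no trait of repeat regions at large.

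Group 1, the GC-rich one shown first, held 476 regions (36.2%) on 21 chromosomes. Its regions had a median width of 302.5 bp, 63.0% GC, 5.78 CpG per 100 bp and 2264 genomic copies per word, and 95.4% of them held CNGGG. Of its regions, 109 repeated themselves with a period of 208 bp, which is a tandem array of like units inside the region. A period could be called only in a region wide enough to hold it in full and then repeat it in full. A region of the median width was too narrow for this period, so the count depends on width. Group 4 held 93 regions on 19 chromosomes, with a median width of 173 bp, 63.8% GC and 1802 copies. Its 2 tandem regions had a period of 212 bp, for which a region of its median width was too narrow.

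Both groups lay upstream of a common landmark of L1. As this landmark, the study's qPCR primer pair for LINE-1 gave 10944 amplicons of 268 bp in the genome without mismatch, and the 8 kb to either side of them took up 6.21% of the genome. Within that distance lay 651 of the 1315 regions (49.5%), 17 of 395 shared regions outside repeats (4.30%), 25.3% of regions of 2 replicates and 9.60% of regions of 1. Of group 1, 413 of 476 regions were within 8 kb of an amplicon, and 406 of them upstream. On an axis along the amplicon's strand, on which upstream is negative, the centres of those recorded on that strand had a median of -3312 bp and of those on the opposite strand -3455 bp. Of group 4, 88 of 93 were within 8 kb, all upstream, at medians of -3176 and -3337 bp.

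Without a mismatch, the subfamily primers of the study separated the groups. These primers, made for bisulfite-treated RNA, were placed with each C read as T, so differences between C and T did not count as mismatches. The amplicons of a primer pair for L1MdA lay on the strand of a LINE-1 amplicon within 8 kb in 2320 of 2340 cases, at a median of -2430 bp. This pair had an amplicon within 8 kb of 421 of the 476 regions of group 1 and of 2 of the 93 of group 4. Primer pairs for L1MdTf had one within 8 kb of 59 (first pair) and 56 (second pair) of the 93 regions of group 4, and of 1 and 4 of the 476 of group 1. The L1MdTf amplicons overlapped 21 and 31 regions of group 4 themselves. With 1 mismatch allowed in each primer, L1MdA no longer separated them, with an amplicon near 467 of 476 regions of group 1 and 90 of 93 of group 4. The L1MdTf pairs then had one near 91 and 81 of the 93 regions of group 4 and near 5 of group 1 each.

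The recorded strand differed between the zone upstream of the amplicon and the zone around it. In the zone 2500 to 5000 bp upstream of the amplicon lay 506 regions, of which 181 were recorded on its strand and 325 on the opposite one. Within 2500 bp to either side lay 117, of which 108 were on its strand and 9 opposite. Regions of exactly 2 replicates differed in the same direction, at 218 and 294 upstream and 174 and 17 around the amplicon. So did those of 1 replicate, at 715 and 813 upstream and 608 and 91 around it. Each sequence is read on its recorded strand, so where units share a direction along the amplicon, a region's orientation only restates its strand. In group 1, 126 of the 130 regions on the amplicon's strand read as the sequence shown, and all 283 on the opposite strand read as its complement. The units thus had 1 direction along the amplicon in all but 4 of these regions. Over the whole of group 1, 143 regions read as shown and 333 as the complement, and group 4 was even, at 47 and 46. Of the regions of group 1, 33.0% overlapped a repeat-masked shared region of the other strand.

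**Figure D2:**
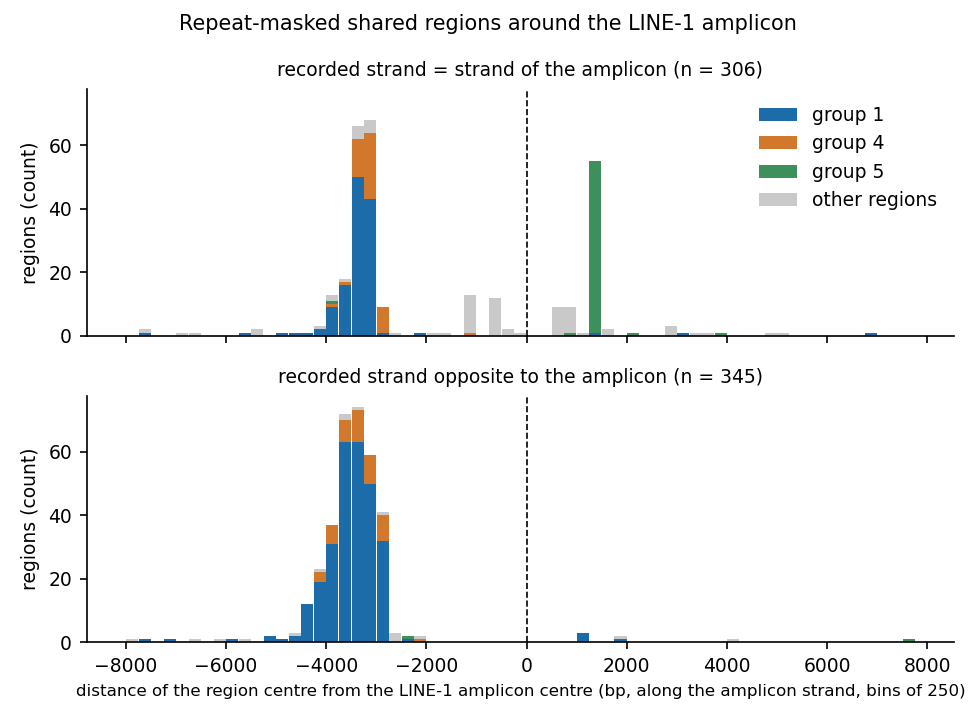
Distance of each region's centre from the centre of the nearest LINE-1 amplicon (x axis, bp along the amplicon's strand, bins of 250) against the number of regions (y axis), for regions recorded on the amplicon's strand (above, n = 306) and on the opposite strand (below, n = 345), coloured by sequence group. Groups 1 and 4 fill the peak 2500 to 5000 bp upstream on both strands, and group 5 forms a narrow peak downstream on the amplicon's strand.

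Group 5 lay at a fixed distance downstream of the amplicon. Its 91 regions were short (median 154 bp), with 41.4% GC, close to the genome (41.7%). They were the most copied of the 5 groups, with a median of 10478 genomic copies per word, and all 91 were recorded in 1 orientation. Of the 60 within 8 kb of an amplicon, 58 were on its strand, at a median of 1420 bp with quartiles of 1391 and 1463 bp, and 54 of these stood in the bin of 250 bp that starts at 1250 bp. CNGGG was present in 95.6% of them and CTCCA in 57.1%. Smaller groups stood at other fixed places on the amplicon's strand: 18 of the 26 regions of group 6 at a median of 750.0 bp, 12 of the 19 of group 8 at -1176 bp, and 13 of the 16 of group 12, of which 12 upstream, at a median of -639.5 bp. All regions of these 3 groups had 1 orientation.

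**Figure D3:**
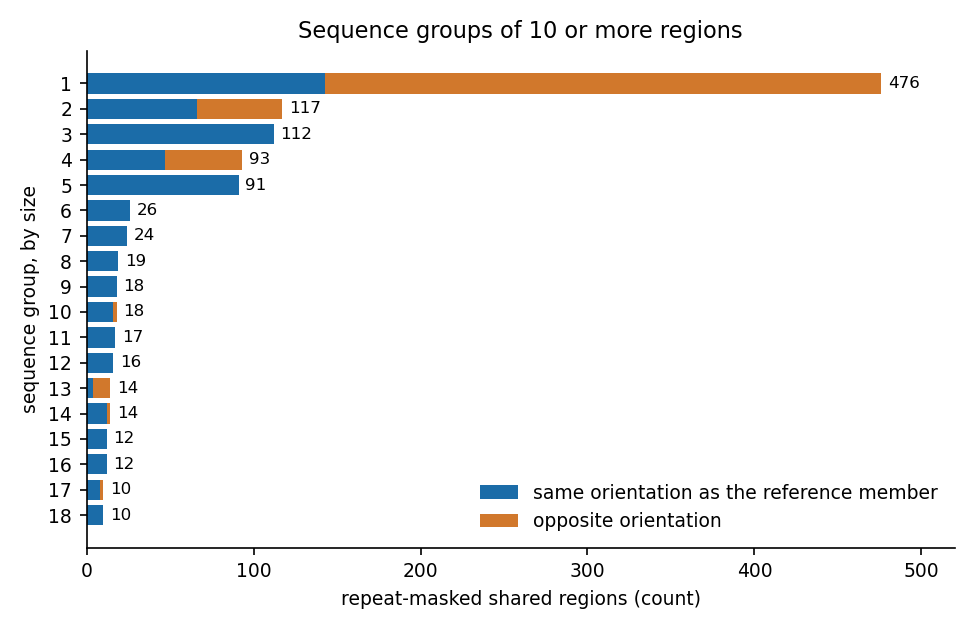
Number of repeat-masked shared regions (x axis, count) in each of the 18 sequence groups of 10 or more (y axis, by size), split by orientation relative to the group's reference member. Groups 1, 2 and 4 hold both orientations, while the 112 regions of group 3 and the 91 of group 5 have 1 orientation.

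Group 2 was the AT-rich tandem repeat of a few crowded places. It held 117 regions on 5 chromosomes or contigs, with 35.5% GC, a median width of 350 bp and 8 copies per word in the assembled genome, which leaves most centromeric repeats out. A period of 234 bp was found in 17 regions, and a region of the median width was too narrow for it to be called. Most of its members stood in the 4 longest chains, a chain being a run of regions each within 10 kb of the next on either strand. The longest held 69 regions in 40212 bp of an unplaced contig, chrUn_JH584304:70267-110478, with 29 on the plus and 40 on the minus strand. The second held 31 regions at the assembled start of chromosome 9 (chr9:3000001-3032492), across the gene models Gm10717, Gm10718, Gm10719, Gm10721, Gm10722, Gm11168 and Gm26870. Chains of 7 regions lay at chr14:19415638-19419702 (Gm21738) and at chr2:98662138-98667414 (Gm10800 and Gm10801), the latter with 6 regions of group 2. Both strands were called at the same place, since 60.7% of the regions of group 2 overlapped a repeat-masked shared region of the other strand.

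Outside such places regions were scattered. Of the 1315, 804 had no other within 10 kb, 129 of the 174 chains were pairs, and 131 regions (9.96%) stood in the 7 chains of 5 or more. Next came a pair of chains of 6 regions, at chr2:80811841-80817333 (group 1, 62.9% GC) and chr5:135624754-135628136 (5 of group 3, 47.7% GC). On the autosomes the regions numbered 3.09 (chromosome 19) to 5.75 (chromosome 3) per 10 Mb. The X chromosome held 97 of them (7.38%), with 7.93% of the masked bases and 1.27% of the shared regions outside repeats. The Y chromosome held 29 (2.21%), with 8.81% of the masked bases. Of its 88124698 sequenced bases 84856465 are masked, and per 10 Mb it held 3.29 regions, within the range of the autosomes.

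**Figure D4:**
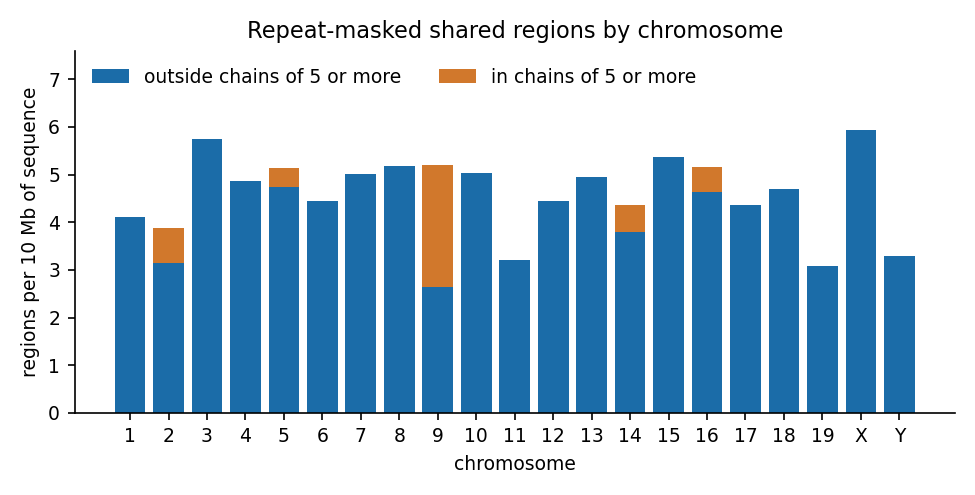
Repeat-masked shared regions per 10 Mb of sequence (y axis) on each assembled chromosome (x axis), split into those in chains of 5 or more regions and the rest. Chromosome X has 5.93 per 10 Mb, above every autosome, and chromosome Y 3.29, while 31 of the 63 regions of chromosome 9 stand in 1 chain.

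Group 3 was a long sequence recorded in 1 direction. It held 112 regions on 20 chromosomes with a median width of 241 bp, 49.1% GC and 54 copies per word, 100 of them outside genes. It held the 2 widest of all 1315 regions, chr19:4061396-4066007 (4612 bp, with 12, 13 and 12 peaks of replicates 1, 2 and 3) and chr11:86811762-86816349 (4588 bp, with 14, 13 and 12), which share a stretch of 2575 bp at 96.6% identity. Of the group, 111 regions aligned to the widest, all in its orientation, with centres spread from 344.5 to 4535.5 bp along it. None of the L1 primer pairs had an amplicon over a region of this group, and it is left unnamed. The next widest regions were a pair on both strands of an array of group 1 (chr3:22730101-22732176 and chr3:22729930-22731555, period 208) and a region of 1601 bp in Gm21738.

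Smaller groups lay near IAP sequences. An IAPEz site of 36 bp that the study's oligo list names as a target has 1456 exact copies in the genome, and 0 of the 1315 regions overlapped one, which allows a share of up to 0.228% (counting error only). The site was overlapped by 2 regions of exactly 2 replicates and 6 regions of 1 replicate. Within 8 kb of a copy lay 54 regions (4.11%). Of the 17 regions of group 11, 14 lay near a copy, 13 on its strand, at a median of 4698 bp on its axis, and of the 12 of group 15, 10 lay near one, all on the opposite strand, at a median of 1043 bp. All repeat primers of the study together had an amplicon over 71 of the 1315 regions (5.40%): 45 on L1, 19 on IAP, 6 on SINEs and 1 on another element. Amplicons of B2_Mm1a, a SINE, overlapped 5 regions, all on the opposite strand.

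Some regions held almost no cytosine. Group 7, named here after its values were seen, held 24 regions on 13 chromosomes in 1 orientation, with a median of 0.629% cytosine and 98.4% purines (G and A). In 8 of them the recorded strand had no cytosine at all, and 14 repeated with a period of 3 bp. Under 5% cytosine was found in 28 of the 1315 regions (2.13%), in 1 of 395 outside repeats (0.253%) and in 776 regions of 1 replicate (2.56%). The other strand of such sequence consists of C and T, and which strand the RNA came from was not tested.

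Few regions touched an exon. By annotation 937 of 1315 (71.3%) lay outside genes, 13.4% and 12.4% of all in introns of the recorded and of the other strand, and 39 (2.97%) on an exon of either strand, where 145 of the 395 shared regions outside repeats lay on an exon. In all, 173 genes had a region in their body on the recorded strand, 159 of them 1 region each. The most were in Gm26870 (17), Gm10717 (7), Gm10801 (4) and Gm21738 (3), all gene models at the crowded places of group 2. Fgf12, a fibroblast growth factor homologue that binds sodium channels, and the lincRNA Gm26804 had 3 each. With 2 each followed Gpc6 (a glypican), Trpm3 (a cation channel), Pkhd1l1, Pde1a (a phosphodiesterase), Supt3, Erg (an ETS transcription factor), Gm47712 and Malrd1, all in introns, of group 1 except for Pde1a with 2 of group 4. The antisense gene Gm14697 had 1 region, of 982 bp.

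Gene counts of the exonic regions set the pull-down beside the Input. Gene counts totalled 29007088 to 34752646 per Input library and 473398 to 592324 per IP library, and values below are normalised to these totals as CPM (counts scaled to a fixed library total). Of 17 gene models with an exon under a region on the recorded strand, 15 had a row in the count tables and 13 passed the filter on low counts. All 13 passed the threshold, 11 higher and 2 lower in IP, in edgeR's quasi-likelihood test (Benjamini-Hochberg adjusted p under 0.05 over 20244 genes). Over all genes tested, 82.0% passed, 39.9% higher and 42.0% lower, so that passing is no result about these genes. The peaks were called in the same IP libraries, and the values below are therefore a description.

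The gene models over group 2 had few counts in Input and more in IP, at levels that differed widely between models. Gm10800 had 4.96, 5.72 and 3.11 CPM in the 3 Input libraries and 11869.5, 11159.9 and 10320.4 CPM in the 3 IP libraries, a log2 difference of 10.28 (SE 0.10, adjusted p = 3.8e-20). Gm10801 rose from a mean of 1.43 ± 0.180 to 4174 ± 345 CPM (SD, n = 3 each, log2 difference 10.54), Gm21738 from 1.27 ± 0.197 to 2781 ± 123 (10.11), and Gm26870 from 1.48 ± 0.188 to 2705 ± 366 (9.87). Every IP library lay far above every Input library in these 4. Gm10717 had 5, 5 and 2 counts in Input and 295, 381 and 251 in IP (log2 difference 11.09), and Gm10719 and Gm10718, with 0 to 2 counts per Input library, had 46, 106 and 68 and 18, 22 and 39 counts in IP. These models lie under regions of the same sequence group, but how alike the models are was not measured. How their reads were divided among them is uncertain. Summed over the 10 models of this kind with an exon under a region on either strand, they made up 0.000993%, 0.00102% and 0.000708% of gene counts in Input and 2.29%, 2.26% and 2.03% in IP.

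Other models rose less. Gm26905, Gm48417, Gm14149 and Gm42863 had log2 differences of 7.12, 5.78, 6.60 and 8.62, at IP means of 65.1, 52.5, 25.1 and 21.7 CPM. Lncenc1, a long non-coding RNA of embryonic stem cells, was the only gene of this kind abundant in Input. It had 824, 818 and 832 CPM in Input and 1274, 1063 and 1170 CPM in IP. Its log2 difference was -0.48 after TMM scaling (edgeR, adjusted p = 1.1e-06) but 0.53 with library size alone and 0.21 to 0.22 when any 1 Input library was left out, so that no direction is given. The median over all genes was -0.17 after TMM and 0.83 with library size alone. The region in Lncenc1 (chr13:97495304-97495869) was 61.7% masked, lay on an exon and repeated with a period of 22 bp. Its first 300 bases hold 97 cytosines, 1 CpG and no CNGGG.
Lncenc1 region (chr13:97495304-97495603, plus strand): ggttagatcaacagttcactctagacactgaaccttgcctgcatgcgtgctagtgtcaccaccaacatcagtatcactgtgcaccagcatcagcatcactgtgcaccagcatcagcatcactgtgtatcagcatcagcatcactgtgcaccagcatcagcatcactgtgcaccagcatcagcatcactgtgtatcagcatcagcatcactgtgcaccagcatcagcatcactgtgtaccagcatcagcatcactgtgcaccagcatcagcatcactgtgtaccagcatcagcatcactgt
Ctnnd1, which encodes a catenin and falls outside the rule for named genes, had 189, 203 and 232 counts in Input and 0, 4 and 0 in IP (log2 difference -2.38, adjusted p = 0.0046 in edgeR), but the groups overlapped in CPM, and with library size alone the difference was -1.38 and no longer passed.

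**Figure D5:**
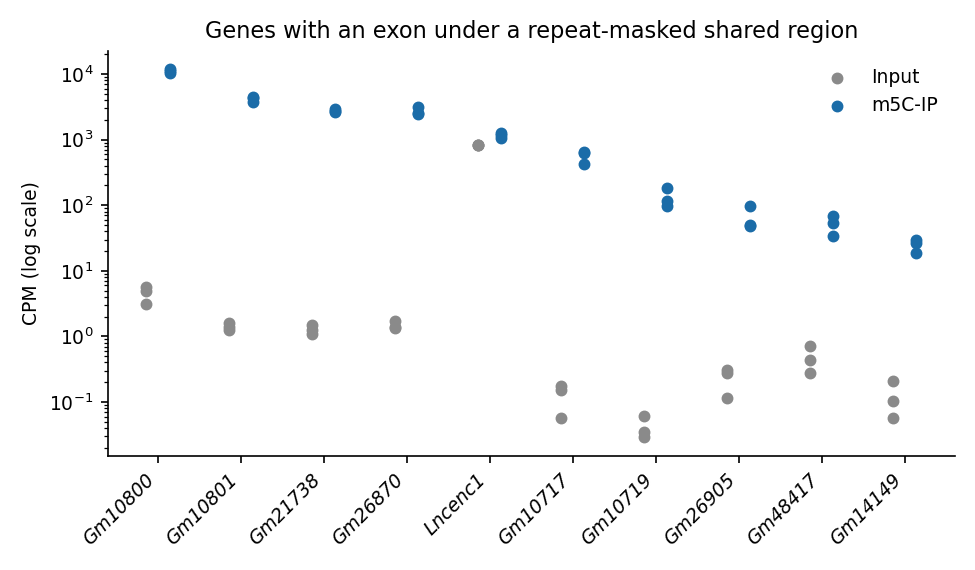
CPM (y axis, log scale) of the genes with an exon under a region on the recorded strand, as 1 point per library, for the 3 Input and the 3 IP libraries; genes with 0 in any library are left out. Gm10800, the highest of the models over group 2, lies at 3.11 to 5.72 CPM in Input and 10320.4 to 11869.5 CPM in IP, while Lncenc1 lies at 818 to 832 and 1063 to 1274.

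Cell type markers were checked in the same tables. Of 10 mESC markers, 9 had at least 1 CPM in all 6 libraries and Sox2 was at 0 in all of them. Summed, the mESC markers had 2353 to 2387 CPM in Input and 1174 to 1427 in IP. Of 6 feeder fibroblast markers, 3 had at least 1 CPM in all 6 libraries, with sums of 66.8 to 69.5 CPM in Input and 57.03 to 119 in IP. Of 5 markers of differentiated lineages, 1 did so, and they summed to 6.78 to 8.29 CPM in Input and 150 to 180 in IP. Their part in the results was not tested. Reads not assigned to a gene, or to no single place, made up 19.01 to 19.3% of the tables' totals in Input and 71.4 to 71.7% in IP.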

How the data were processed

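The m5C-IP and Input libraries of wild-type mESC caRNA were processed before deposit. Per the submitters' processing notes and the study's methods, reads were trimmed with Trimmomatic 0.39, aligned to mm10 with HISAT2 2.1.0, split by strand with SAMtools 1.16.1 and called with MACS2 per strand and replicate at a fragment extension of 150 bp. The authors deposited peak intervals and raw read counts per gene, of which summary lines (19.01 to 19.3% of the totals in Input, 71.4 to 71.7% in IP) stayed out of library sizes and tests. How reads with several placements were handled in peak calling is not given in the sources used here. The pull-down libraries are shallower by far, so the precision of their gene counts is lower.

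Peaks were merged in Python 3.11.15 (pandas 2.3.3, numpy 2.4.6) and set on soft-masked GRCm38 and GENCODE annotation. The unplaced contig with 70 regions was matched to the only unplaced sequence long enough for its peaks, and 1 shared region on another contig was not analysed here. The program that masked the genome and the repeat classes are not given in the sources used here. Word copies were counted over both strands of 65 sequences, and groups were joined from blastn 2.17.0 alignments. Tandem periods of up to 250 bp were called at 80% self-match, in regions wide enough to hold the period in full and repeat it. Primers were placed as amplicons without mismatch, the qPCR primers and the target site with all 4 bases. The study's primers for bisulfite-treated RNA, among them those of the L1 subfamilies, were placed with each C read as T. Differences between C and T did not count as mismatches there. Gene counts of 6 libraries were tested with edgeR 4.0.16 (R 4.3.3, TMM, filterByExpr, quasi-likelihood test, Benjamini-Hochberg over all genes tested) and, as an alternative, DESeq2 1.42.0. The merging of peaks, the word counts, the grouping, the primer placement and the edgeR test were checked on planted or simulated data. Regions are given side by side with no test, since they are not replicates.

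Named were the 5 longest chains, the 5 widest regions, the 5 nearest to either side of the masking threshold, the 5 largest groups, the 15 genes with the most regions, the 10 exonic genes of highest mean CPM and the 5 largest and 5 smallest differences among those of at least 5 CPM without overlap. The regions, lists and rules were chosen with earlier results of these data known. The replicate numbers were not used as pairs in the main test. Correlations of same-numbered Input and IP deviations were 0.0279, 0.0191 and 0.0268, and those of differing numbers ran from -0.0239 to -0.00156.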

Additional observations from a re-analysis of the deposited data

How the results depend on the processing

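The share of shared regions called repeat-masked followed the threshold, at 81.5% with at least 25% of masked bases, 73.5% with at least 75% and 60.7% with all bases masked. With a peak of at least 2 of the 3 replicates required, 3152 regions (65.6%) qualified, by construction more than with all 3. Leaving out each replicate gave 1776 to 2192 regions and 69.1 to 71.4%, and replicate 1 decided most, with 2192 regions without it. Merging without strand, merging at 75 bp or more and leaving out chains of 5 or more kept the number within 1.5 times of 1315. The median copy number was 1850.0 with 25-base words, regions on a primer-defined element were 136 with 1 mismatch allowed per primer, and regions within 8 kb of a LINE-1 amplicon were 730 with 1 mismatch, an alternative chosen after seeing the data. Without the chains of 5 or more, 1.18% of regions lay on exons.

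Of the genes under the regions, 11 of 12 tested passed without any 1 Input library and 13 of 13 without any 1 IP library. Without Input replicate 1, 4578 and 4667 of all 12290 genes were higher and lower, and without IP replicate 1, 7875 and 8290 of 21283. Library size alone gave 12 of 13, with 10022 and 4738 of all 20244 genes. Leaving out the filter on low counts gave 14 of 15, with 12677 and 9718 of 34804. Exons of either strand gave 18 of 18, where 82.0% of all genes passed. The replicate block gave 13 of 13, with 7549 and 7885 of 20244, and it changed no call of these genes. Passing is therefore no result about these genes. Every sample correlated best with its own number, as a hint from the data and not the design. The log2 difference of Lncenc1 was 0.53 with library size alone and -0.55 to 0.22 when a library was left out; without Input replicates 1, 2 and 3 it was 0.22, 0.21 and 0.22, and the cause was not tested. Ctnnd1 no longer passed with library size alone (-1.38), was -10.00 without IP replicate 2, which holds all 4 of its IP counts, and failed the filter without any 1 Input library. The other 11 genes kept a positive difference in every fit. The low depth of the IP libraries limits genes of few counts, and the many copies of a sequence limit where a region was transcribed.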
